A study of Rattus norvegicus with 20 samples.

Results

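Carboxylesterases were followed in the livers of male rats given hydrocortisone, the herbal powder labelled BGZ_L, both, or neither. The genes were 9 carboxylesterase names of the rat families Ces1 and Ces2, chosen by name: Ces1c, Ces1d, Ces1e, Ces1f, Ces2a, Ces2c, Ces2e, Ces2g and Ces2h. Of these, 6 had a row under that name among the 32883 genes of the deposited table, namely Ces1d, Ces2a, Ces2c, Ces2e, Ces2g and Ces2h. Their Ensembl identifiers in the table are ENSRNOG00000015519 for Ces1d, ENSRNOG00000011330 for Ces2a, ENSRNOG00000036571 for Ces2c, ENSRNOG00000011635 for Ces2e, ENSRNOG00000013808 for Ces2g and ENSRNOG00000039079 for Ces2h. Ces1c, Ces1e and Ces1f were not analysed here under these names, and 1 row whose annotation mentions Ces1f is given with the other carboxylesterases. RNA was sequenced from whole liver, 1 library per rat, with 5 rats in each of 4 groups. Rats of the KYDS+BGZ_L group were given both agents, with 25 mg/kg for hydrocortisone and 0.9 g/kg for the BGZ_L powder. Rats of the KYDS group were given the same hydrocortisone dose alone, and its labels give kidney-yang deficiency syndrome as the disease state, as do those of the KYDS+BGZ_L group. Rats of the BGZ_L group were given the same powder dose alone. The CON group received 0.5% CMC-Na, a cellulose suspension used as vehicle. The sources used here state neither the rats' strain and age nor the route and length of treatment. The labels do not spell out the code BGZ_L, and the series is titled for Psoraleae Fructus, a herbal drug. Nothing beyond separate sample labels states that the libraries come from separately housed animals, so p-values measure the spread between these samples.

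Carboxylesterases are serine hydrolases of the endoplasmic reticulum that split esters, amides and thioesters, and the liver is a major site of their expression. They activate or inactivate many drugs, prodrugs and pyrethroid insecticides, and several also hydrolyse stored lipid. Ces1d is known in the mouse as triacylglycerol hydrolase, an enzyme that mobilises stored fat for very low density lipoprotein assembly. Members of the Ces2 family prefer substrates with a small acyl group and a large alcohol group. Ces2c is annotated in the deposited table as an acylcarnitine hydrolase, and Ces2e as a pyrethroid hydrolase. In rats a Ces2 carboxylesterase is known to be induced in the liver by dexamethasone, another glucocorticoid. Which row used here corresponds to that enzyme was not determined.

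The promoters of the member whose RNA differed most (Ces2c), of the second member that passed the test (Ces2h) and of the most abundant member (Ces1d) are printed to show what these genes carry next to their start. Each runs from 250 bases before to 50 bases after the annotated start, from RefSeq on build GRCr8, where 5 of the 6 members had an entry and Ces2a did not. Ces2c lies at chr1:270376951-270377250, Ces2h at chr19:49883914-49884213 and Ces1d at chr19:30046244-30046543, all on the + strand. Capitals mark matches on either strand to CCAAT (the CCAAT box) in Ces2c and Ces1d, and to AGGTCA, a nuclear receptor half-site, in Ces2h.
Ces2c: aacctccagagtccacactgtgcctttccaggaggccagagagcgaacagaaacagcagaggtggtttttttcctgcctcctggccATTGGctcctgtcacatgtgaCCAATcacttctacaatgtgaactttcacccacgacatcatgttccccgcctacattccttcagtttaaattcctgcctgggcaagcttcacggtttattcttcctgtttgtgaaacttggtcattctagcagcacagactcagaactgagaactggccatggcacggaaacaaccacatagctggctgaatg
Ces2h: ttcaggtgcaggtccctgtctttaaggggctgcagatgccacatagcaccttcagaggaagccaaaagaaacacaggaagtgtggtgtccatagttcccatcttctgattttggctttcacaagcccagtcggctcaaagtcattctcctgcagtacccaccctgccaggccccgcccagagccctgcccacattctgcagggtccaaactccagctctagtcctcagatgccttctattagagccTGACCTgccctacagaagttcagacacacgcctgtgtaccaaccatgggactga
Ces1d: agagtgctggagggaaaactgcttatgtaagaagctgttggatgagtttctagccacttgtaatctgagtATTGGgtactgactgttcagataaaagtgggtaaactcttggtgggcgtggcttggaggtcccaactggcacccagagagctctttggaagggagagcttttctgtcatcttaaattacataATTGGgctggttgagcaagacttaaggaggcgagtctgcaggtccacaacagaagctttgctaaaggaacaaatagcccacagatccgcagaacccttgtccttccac
Ces2c held 2 matches to CCAAT, Ces1d 2 and Ces2h none, where 37.5% of the 33469 promoters in the same set held at least 1. AGGTCA occurred once in Ces2h, as its reverse complement, and in 16.2% of all promoters. AGAACA, the glucocorticoid receptor half-site, occurred once in Ces2e (chr19:163649-163948) and not in these windows of Ces1d, Ces2c, Ces2g or Ces2h, against 20.7% of all promoters. The 3 motifs were searched on both strands and no matches overlapped in these windows; a match describes letters and not binding. Ces2c and Ces2g (chr19:49856420-49856719) shared an unbroken stretch of 21 bases, printed here because it was the longest run common to any pair of the 5 promoters.
Ces2c and Ces2g shared stretch: TTAAATTCCTGCCTGGGCAAG
It begins at base 173 of the Ces2c window and base 204 of the Ces2g window, and the whole windows of the pair were 55.4% identical after alignment.

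The neighbourhood of these genes bears on how their reads can be counted. RefSeq lists 24 rat genes named Ces on GRCr8, of which 20 are on chromosome 19, 4 are on chromosome 1 and 4 are pseudogenes. Ces2c is on chromosome 1 between the pseudogenes Ces2c-ps1 and Ces2e-ps1, whereas the other 5 members are on chromosome 19. Ces2a is itself listed there as a transcribed pseudogene, next to Ces2e. Reads of near-identical copies may have been split or lost in the authors' counting, which no source used here describes, so the value of each Ces2 row is uncertain to that extent.

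Values are given as scaled TPM. TPM, a count of transcripts scaled to a common library total, is a length-scaled unit that the deposited values fit, and it keeps no sequencing depth, so the depth is unknown. Each library was divided by a factor that aligns most genes across libraries. The libraries differed in composition: the 13 mitochondrially encoded genes took 19.2% of TPM in KYDS 3 and 90.1% in CON 2, the extremes of the 20 libraries. Their share averaged 42.4 ± 18.0% in KYDS rats and 75.1 ± 10.2% in CON rats (SD, n = 5 each; two-sided exact permutation p = 0.0238, adjusted p = 0.0476 over 6 library tests). It averaged 48.9 ± 17.7% in KYDS+BGZ_L rats and 67.3 ± 17.3% in BGZ_L rats (exact permutation p = 0.135, adjusted p = 0.135). The scaling factor, by which each library was divided, was 1.31 to 2.01 in KYDS rats against 0.231 to 1.26 in CON rats (exact permutation p = 0.00794, adjusted p = 0.0238) and 0.962 to 1.79 in KYDS+BGZ_L rats against 0.345 to 1.35 in BGZ_L rats (exact permutation p = 0.0476, adjusted p = 0.0571). The 8 hepatocyte markers (Alb, Ttr, Apoa1, Tf, Serpina1, Fgb, Cps1 and Ass1) were above 0 in every library. They summed to 9234 to 45492 scaled TPM in KYDS+BGZ_L rats, 6463 to 64141 in KYDS rats, 5474 to 6336 in BGZ_L rats and 5452 to 9447 in CON rats. Their mean log2 level was 9.90 ± 1.07 in KYDS rats against 8.75 ± 0.15 in CON rats (exact permutation p = 0.0397, adjusted p = 0.0571), and 9.995 ± 0.96 in KYDS+BGZ_L rats against 8.69 ± 0.16 in BGZ_L rats (exact permutation p = 0.00794, the smallest that 5 against 5 allows, adjusted p = 0.0238). Of the markers of other cell types, 1 of 6 Kupffer cell genes and the enterocyte-listed gene Apoa4 were higher in both hydrocortisone comparisons. Of all genes tested, 3.25% were called higher for KYDS against CON and 8.82% for KYDS+BGZ_L against BGZ_L. The 6 Kupffer cell genes summed to 46.3 to 94.3 scaled TPM in KYDS rats and 26.6 to 39.3 in CON rats, without overlap. They summed to 34.3 to 111 in KYDS+BGZ_L rats and 26.0 to 272 in BGZ_L rats. These sums were not tested. No endothelial, stellate, cholangiocyte, erythroid or adipocyte marker tested was called in these comparisons. Of the 4 enterocyte-listed genes, Cdx2 was at 0 in 15 of 20 libraries, Fabp2 in 5, Vil1 in 4 and Apoa4 in 0. Fabp2 reached at most 2.96 TPM and Vil1 at most 0.27 TPM. T and B cell markers summed to at most 0.892 scaled TPM in any library. In whole tissue, fewer cells of a type and less RNA per cell cannot be told apart.

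Ces1d made up most of the carboxylesterase RNA measured under these names in every group. It averaged 507 ± 66.9 scaled TPM in KYDS+BGZ_L rats, 300 ± 49.5 in KYDS rats, 277 ± 148 in BGZ_L rats and 340 ± 178 in CON rats (SD, n = 5 each). As a share of the summed TPM of the 6 members, which no scaling affects, Ces1d took 87.7 ± 6.06% in KYDS+BGZ_L rats, 85.01 ± 11.8% in KYDS rats, 93.3 ± 5.97% in BGZ_L rats and 97.2 ± 1.504% in CON rats. Its range lay above that of every other member with a row in each of the 4 groups. The row LOC501233, which 1 annotation calls Ces1f, is outside these shares, and its range overlapped that of Ces1d in each group. The order below Ces1d differed between groups. In KYDS+BGZ_L and KYDS rats Ces2c came second. In KYDS+BGZ_L rats it lay clear of Ces2h, the third, whereas in KYDS rats its range overlapped that of the third, Ces2e. In BGZ_L rats the order by mean was Ces2a, Ces2h, Ces2e, Ces2c and Ces2g, and in CON rats it was Ces2h, Ces2e, Ces2a, Ces2c and Ces2g. Each neighbouring pair in these last lists overlapped in range, but pairs further apart did not all overlap. In BGZ_L rats Ces2a (2.08 to 12.3 scaled TPM) and Ces2h (1.43 to 5.18) lay above Ces2c (0.244 to 1.10), and Ces2e (0.929 to 3.50) lay above Ces2g (0 to 0.268). In CON rats Ces2h, Ces2e and Ces2a, at 0.371 or more, lay above Ces2g, at 0.346 or less. The summed level of the 6 members was 581 ± 96.0 scaled TPM in KYDS+BGZ_L rats, 360 ± 79.2 in KYDS rats, 289 ± 148 in BGZ_L rats and 349 ± 183 in CON rats.

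**Figure D1:**
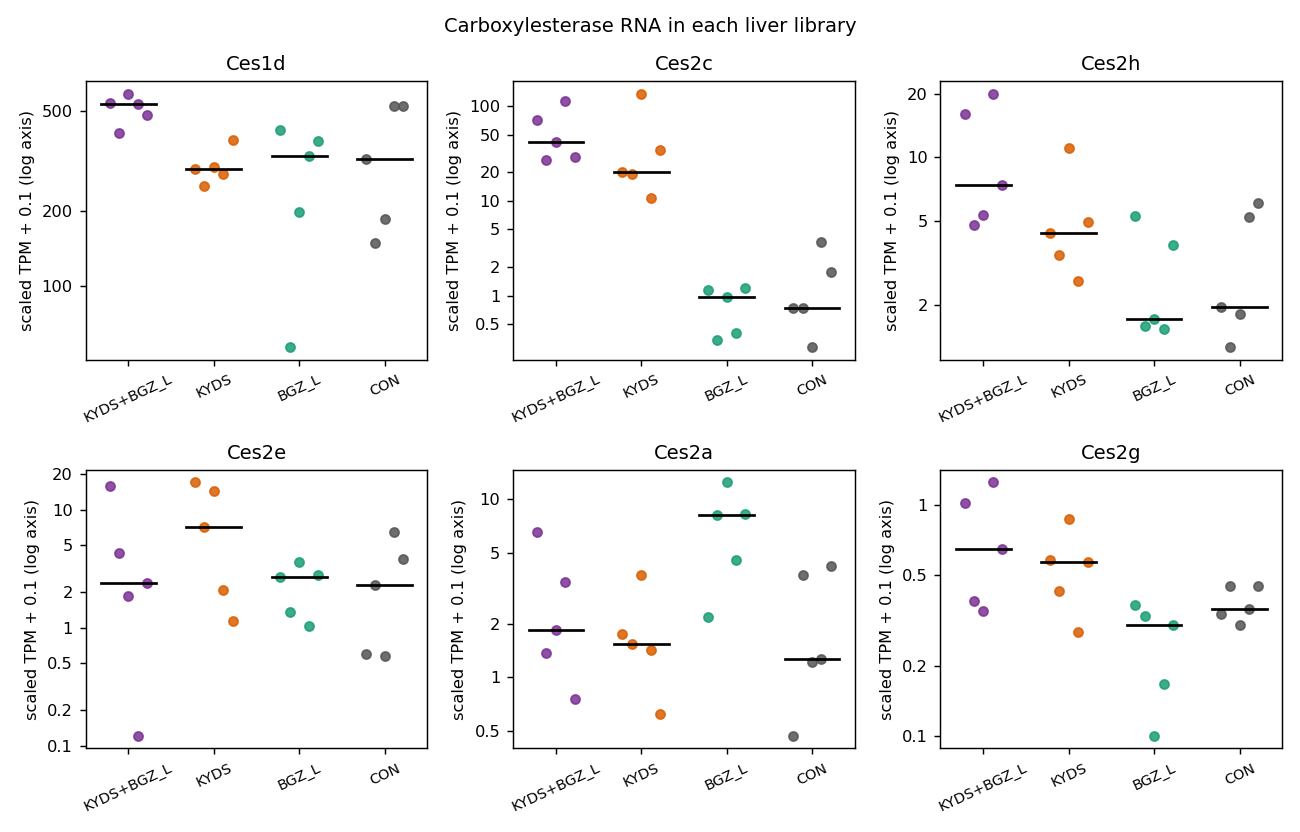
Scaled TPM (plus 0.1, log axis) of the 6 carboxylesterases in each library, in the order KYDS+BGZ_L, KYDS, BGZ_L and CON; each point is 1 rat and the bar is the group's median. Ces2c lies between 10.6 and 135 scaled TPM in all 10 hydrocortisone-treated rats and between 0.188 and 3.62 in the other 10.

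Ces2c, the acylcarnitine hydrolase-like member, was the member that differed most with hydrocortisone. It read 19.9, 19.1, 135, 10.6 and 34.1 scaled TPM in KYDS rats 1 to 5, against 0.645, 0.648, 0.188, 3.62 and 1.69 in CON rats 1 to 5. The lowest KYDS rat stood above the highest CON rat, as was so for 3.32% of all genes tested. The fitted log2 difference was 4.26 ± 0.58 (SE), a 19.1-fold higher level (95% interval of the log2 difference 3.03 to 5.48; limma, adjusted p = 4.9e-04 by Benjamini-Hochberg over 11869 genes). As deposited, Ces2c was 0.13 to 4.57 TPM in CON rats (median 0.73). Unknown depth limits a fold difference over values this low. Ces2c had the eighth highest log2 difference of all genes tested. It was the only 1 of the 5 tested members called higher, and none was called lower, where 3.25% of all genes tested were called higher and 3.02% lower. Those all-gene counts depend on single libraries, and without KYDS 5 they were 142 higher and 82 lower. Without scaling, the all-gene calls became 5867 higher and 66 lower, against 386 higher and 358 lower with it, and the median log2 difference of all genes was 1.03, against 0.05 with it. Ces2e and Ces2h then also passed for KYDS against CON, which made 3 members higher.

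In rats that also received BGZ_L the same gene was higher again with hydrocortisone. Ces2c read 71.8, 26.9, 41.3, 112 and 28.7 scaled TPM in KYDS+BGZ_L rats 1 to 5, against 1.05, 0.244, 0.869, 0.305 and 1.10 in BGZ_L rats 1 to 5. The groups did not overlap, as was so in this direction for 7.2% of all genes tested. The log2 difference was 5.40 ± 0.58, or 42.2-fold (95% interval 4.17 to 6.63; limma, adjusted p = 2.2e-05), the second highest of the 11869 genes. These rats are other animals than those of the KYDS and CON groups, so the 2 comparisons share no library. Of the 5 tested members, 2 were called higher and none lower, where 8.82% of all genes tested were called higher and 8.55% lower. Without KYDS+BGZ_L 4 the all-gene counts were 523 higher and 579 lower, against 1047 and 1015 with it.

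Ratios between members, which no scaling of libraries affects, separated the groups as well. Ces2c came to 6.01 to 21.1% of the Ces1d TPM in KYDS+BGZ_L rats and 3.78 to 45.3% in KYDS rats, against 0.0921 to 0.440% in BGZ_L rats and 0.101 to 0.696% in CON rats. The ratio of Ces2c to Ces2h was 3.96 to 7.92 in KYDS+BGZ_L rats and 4.25 to 12.3 in KYDS rats, against 0.163 to 0.536 in BGZ_L rats and 0.109 to 0.7096 in CON rats. Both ratios separated every hydrocortisone-treated rat from every rat without it. Ces2c alone already did so and is part of both, so the ratios add only that no scaling is involved. How often ratios of other genes separate these rats was not computed. In the make-up of the 6 members, Ces2c took 9.22 ± 4.80% in KYDS+BGZ_L rats, 10.7 ± 10.5% in KYDS rats, 0.274 ± 0.120% in BGZ_L rats and 0.340 ± 0.221% in CON rats.

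**Figure D2:**
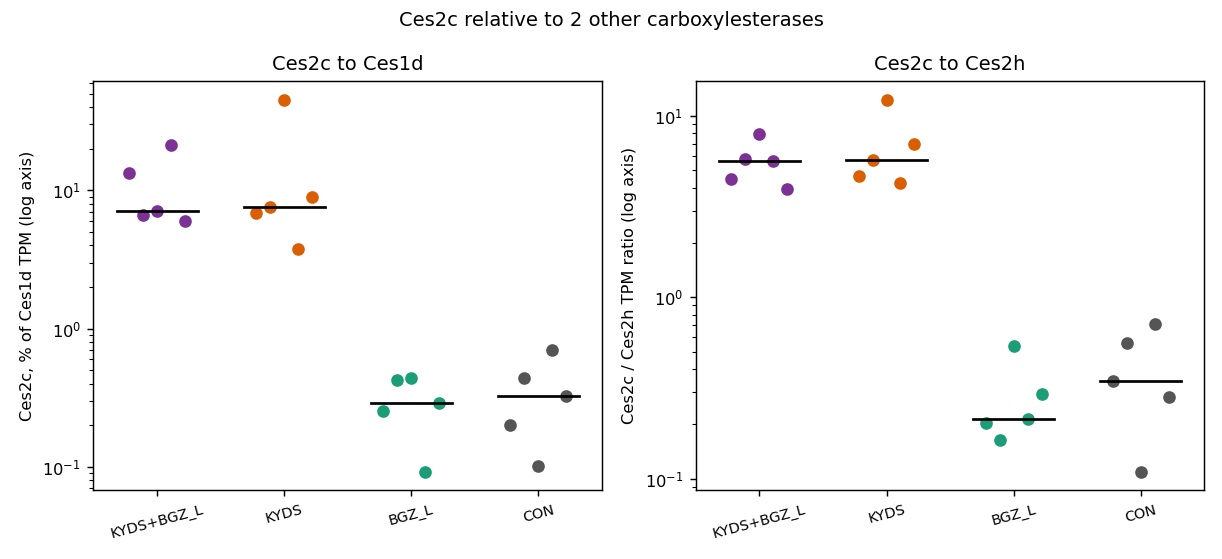
Ces2c relative to Ces1d (left, as a percent of the Ces1d TPM) and relative to Ces2h (right, TPM ratio), both on log axes, 1 point per rat with the median as a bar. The 5 KYDS+BGZ_L and 5 KYDS rats lie above the 5 BGZ_L and 5 CON rats in both panels, for example at 3.96 or more against 0.7096 or less for the ratio to Ces2h.

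Ces2c was also set beside the mitochondrial share and the hepatocyte marker level of each library. At like mitochondrial shares, KYDS 4 (68.9% mitochondrial) held 10.6 scaled TPM of Ces2c and KYDS+BGZ_L 2 (70.2%) held 26.9, whereas CON 4 (68.5%) held 3.62 and CON 5 (70.3%) held 1.69. At the other end, KYDS 5 (35.3%) held 34.1 and KYDS 1 (43.2%) held 19.9, whereas BGZ_L 1 (39.6%) held 1.05. Over all 20 libraries, each hydrocortisone-treated rat held at least 10.6 scaled TPM of Ces2c and each other rat at most 3.62. Any such libraries set side by side would show this order, so the values above do not test the mitochondrial share. BGZ_L 1 alone among the libraries without hydrocortisone had so low a share, and the next lowest was 61.8% in BGZ_L 4. Share and treatment went together in part, so their parts in the Ces2c difference cannot be fully told apart. When each library's nuclear TPM relative to its mitochondrial TPM (log2) entered the fit as a covariate, the log2 difference was 2.93 ± 0.58 for KYDS against CON (limma, adjusted p = 0.0464) and 4.67 ± 0.50 for KYDS+BGZ_L against BGZ_L (adjusted p = 2.7e-05). With the mean hepatocyte marker level as the covariate it was 3.10 ± 0.49 for KYDS against CON and 4.10 ± 0.51 for KYDS+BGZ_L against BGZ_L. The difference of Ces2c from that marker level ran from -5.17 to -3.74 (log2) in KYDS+BGZ_L rats and from -5.53 to -4.22 in KYDS rats, against -9.13 to -7.89 in BGZ_L rats and -9.24 to -6.79 in CON rats. Ces2c passed the test in both comparisons under all 35 alternative settings.

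**Figure D3:**
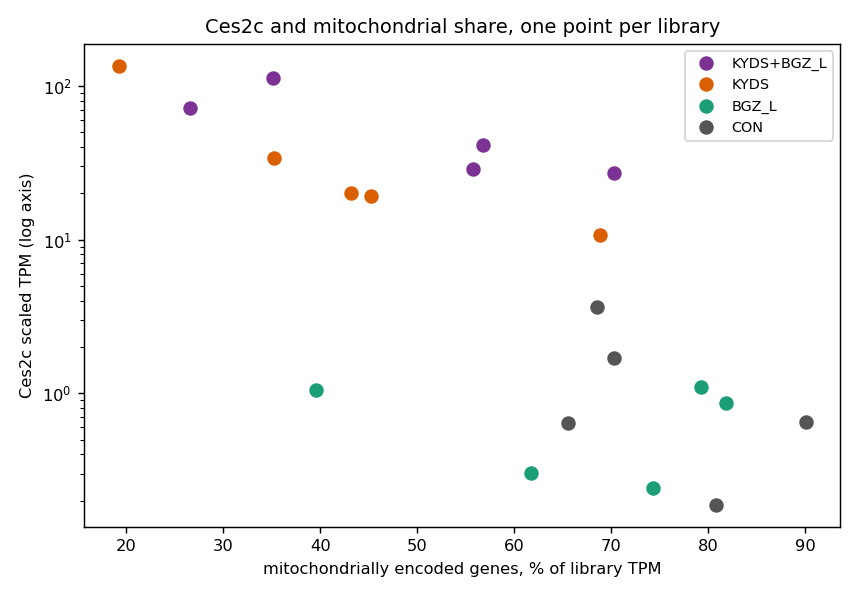
Ces2c in scaled TPM (log axis) against the percent of each library's TPM that comes from mitochondrially encoded genes; 1 point per library, coloured by group. Near 70% mitochondrial, KYDS+BGZ_L 2 (26.9 scaled TPM) and KYDS 4 (10.6) lie above CON 4 (3.62) and CON 5 (1.69). The same order holds between all hydrocortisone-treated libraries and all others, whatever their share.

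Ces2h, which the table annotates to phase I drug metabolism, was called higher with hydrocortisone in rats that also had BGZ_L. It read 15.9, 4.68, 5.22, 19.9 and 7.26 scaled TPM in KYDS+BGZ_L rats 1 to 5, against 5.18, 1.497, 1.62, 1.43 and 3.75 in BGZ_L rats 1 to 5. The groups overlapped in 1 place, since BGZ_L 1 stood above KYDS+BGZ_L 2. The log2 difference was 1.72 ± 0.48 (limma, adjusted p = 0.0194), or 3.30-fold. In rats without BGZ_L, Ces2h read 4.28, 3.34, 10.98, 2.502 and 4.86 scaled TPM in KYDS rats and 1.86, 1.17, 1.72, 5.10 and 5.98 in CON rats, a log2 difference of 0.68 ± 0.48 (limma, adjusted p = 0.398). The call in the first comparison ended when KYDS+BGZ_L 1 (adjusted p = 0.0624), KYDS+BGZ_L 4 (0.0664) or BGZ_L 3 (0.0501) was left out, where the log2 differences were 1.52, 1.44 and 1.62, and it also ended with the mitochondrial covariate (log2 difference 1.02, adjusted p = 0.107) and with the hepatocyte marker covariate (0.78, adjusted p = 0.344). As a percent of the Ces1d TPM, Ces2h overlapped between the groups, at 0.894 to 3.74% in KYDS+BGZ_L rats and 0.434 to 2.61% in BGZ_L rats.

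Ces1d, the most abundant member, did not pass the test in any comparison as fitted to the 4 group means. It read 292, 250, 297, 281 and 383 scaled TPM in KYDS rats, against 321, 148, 186, 520 and 523 in CON rats. The CON rats spread more widely and enclosed the KYDS rats. The log2 difference was -0.01 ± 0.45 with a 95% interval of -0.96 to 0.94 (limma, adjusted p = 0.992), and it was 1.35 without scaling (adjusted p = 0.0946). The level was 533, 407, 583, 531 and 478 scaled TPM in KYDS+BGZ_L rats, against 419, 57.3, 198, 331 and 379 in BGZ_L rats, a log2 difference of 1.15 ± 0.45 (adjusted p = 0.0822). Without scaling this difference was 1.99 and passed (adjusted p = 0.0454). BGZ_L 1, at 419, lay above KYDS+BGZ_L 2, at 407, and BGZ_L 2 was the lowest library of all. With BGZ_L 1 left out, the difference was 1.37 (adjusted p = 0.0419), and with BGZ_L 2 left out it was 0.65 (adjusted p = 0.220).

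Ces2e, the pyrethroid hydrolase, spread widely within groups. It read 17.0, 7.10, 14.3, 1.98 and 1.04 scaled TPM in KYDS rats, against 0.495, 2.20, 0.477, 6.46 and 3.72 in CON rats, a log2 difference of 1.32 ± 0.80 (limma, adjusted p = 0.323). In KYDS+BGZ_L rats it read 15.9, 4.18, 1.77, 0.0212 and 2.31, against 2.58, 1.25, 3.50, 0.929 and 2.68 in BGZ_L rats, a log2 difference of 0.27 ± 0.80 (adjusted p = 0.841). In each of these comparisons the ranges overlapped. KYDS+BGZ_L 4, at 0.0212, held the lowest value of Ces2e, although its Ces2c was the highest of its group.

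Ces2a, the row that RefSeq lists as a transcribed pseudogene, had its highest group mean in BGZ_L rats. It read 2.08, 8.03, 12.3, 4.48 and 8.11 scaled TPM in BGZ_L rats 1 to 5, against 0.371, 3.63, 1.11, 1.16 and 4.12 in CON rats 1 to 5. BGZ_L 1 fell inside the range of the CON rats and the other 4 lay above it. The log2 difference was 1.62 ± 0.54 (95% interval 0.48 to 2.76), which failed the adjustment (limma, unadjusted p = 0.0071, adjusted p = 0.585). In KYDS+BGZ_L rats Ces2a read 6.46, 1.26, 1.76, 3.34 and 0.656, a log2 difference of -1.32 ± 0.54 from BGZ_L rats (adjusted p = 0.0942). In KYDS rats it averaged 1.72 ± 1.16, against 2.08 ± 1.68 in CON rats (log2 difference -0.09 ± 0.54, adjusted p = 0.934). The ratio of Ces2a to Ces2h ran from 0.402 to 7.59 in BGZ_L rats and from 0.199 to 3.11 in CON rats.

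Ces2g was near the bottom of the measured range. It reached 0.5 scaled TPM in 4 of 20 libraries, short of the 5 required, and was therefore not tested with the other members. It read 0.922, 0.284, 0.249, 1.16 and 0.547 scaled TPM in KYDS+BGZ_L rats and 0.480, 0.323, 0.773, 0.183 and 0.466 in KYDS rats. It read 0.268, 0.232, 0, 0.0669 and 0.203 in BGZ_L rats, where BGZ_L 3 was listed at 0, and 0.238, 0.346, 0.203, 0.253 and 0.345 in CON rats. With no filter on low values its log2 difference was 0.74 ± 0.22 for KYDS+BGZ_L against BGZ_L (limma, adjusted p = 0.0417 over 19797 genes) and 0.26 ± 0.22 for KYDS against CON (adjusted p = 0.577).

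**Figure D4:**
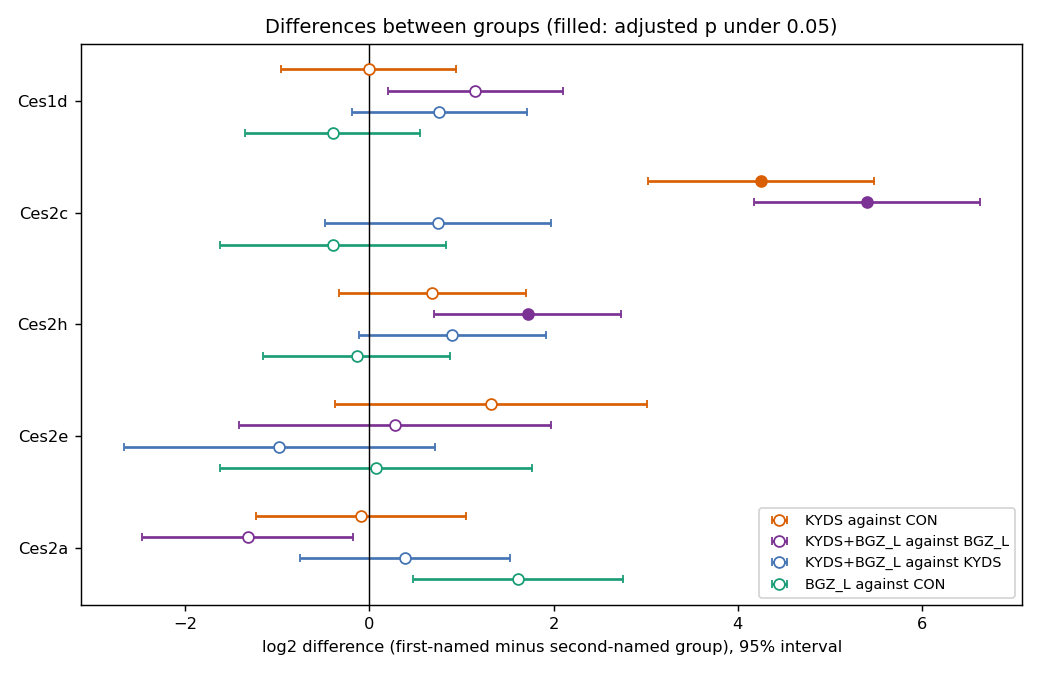
Log2 differences with 95% intervals for the 5 tested members in 4 comparisons; filled points have an adjusted p under 0.05. Ces2c stands at 4.26 and 5.40 in the hydrocortisone comparisons and Ces2h at 1.72 in the second of them, and the other points are open.

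BGZ_L itself was compared with and without hydrocortisone. Among KYDS+BGZ_L rats against KYDS rats, 0 of 5 members were called by limma, where 0.126% of all genes tested were called in either direction. At an unadjusted p under 0.05 there were 0 members, and 405 of 11869 genes. Ces1d was higher in KYDS+BGZ_L rats with no overlap, at 407 to 583 scaled TPM against 250 to 383 in KYDS rats, where 0.388% of all genes were higher without overlap. Its log2 difference was 0.76 ± 0.45 (95% interval -0.19 to 1.71; adjusted p = 0.9995). In the values as deposited the groups did overlap, at 416 to 955 TPM in KYDS+BGZ_L rats and 368 to 690 TPM in KYDS rats. The log2 differences of Ces2c, at 0.74 ± 0.58, Ces2h, at 0.90 ± 0.48, Ces2a, at 0.39 ± 0.54, and Ces2e, at -0.98 ± 0.80, had intervals that include 0. Among BGZ_L rats against CON rats, 0 of 5 members were called by limma, as were 0% of all genes, although 1 member (Ces2a) and 715 genes had an unadjusted p under 0.05. Ces2c was -0.40 ± 0.58 in this comparison.

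Whether the hydrocortisone difference itself changed with BGZ_L was tested by an interaction term. It called 0 of 5 members, where 0.0253% of all genes were called. At an unadjusted p under 0.05 there were 0 members, and 447 of 11869 genes. With the mitochondrial covariate the interaction was 1.60 ± 0.48 for Ces2h (limma, unadjusted p = 0.0038, adjusted p = 0.336) and 1.73 ± 0.66 for Ces2c (0.0172, adjusted 0.452). For Ces1d it was 1.46 ± 0.60 (0.0255, adjusted 0.475). In that fit 3 of 5 members had an unadjusted p under 0.05 and 0 passed the adjustment. The all-gene share at an unadjusted p under 0.05 is not given for that fit, so the 3 cannot be set against a background. Of all 11869 genes, 1 was called higher and 2 lower there. Without KYDS 3, and without the covariate, the interaction was 1.69 ± 0.68 for Ces2c (limma, unadjusted p = 0.0224, adjusted 0.884). As fitted without the covariate, the interaction for Ces2c was 1.14 ± 0.82 on the log2 scale (95% interval -0.59 to 2.88) and for Ces2h it was 1.04 ± 0.68 (-0.40 to 2.47). These intervals include 0 and also values larger than 2, so a change of either sign or size in that range cannot be told apart from none.

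Across the 5 tested members the median log2 difference was 0.68 for KYDS against CON, where the median of all genes was 0.05, and 1.15 for KYDS+BGZ_L against BGZ_L, where it was 0.06. It was 0.74 for KYDS+BGZ_L against KYDS, with -0.02 for all genes, and -0.14 for BGZ_L against CON, with -0.01 for all genes. Ces2c was the only tested member called in both hydrocortisone comparisons.

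**Figure D5:**
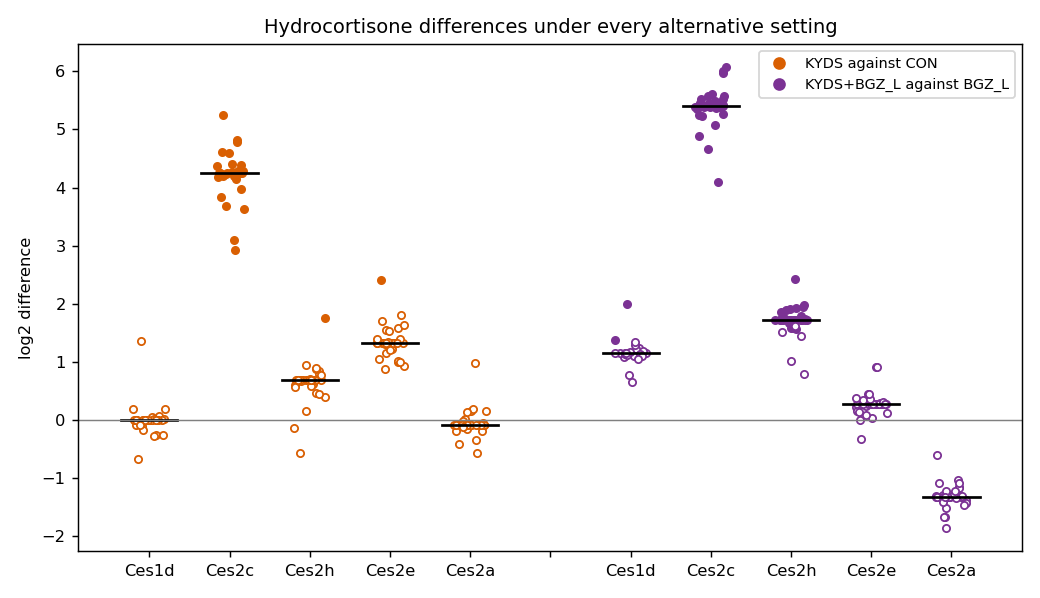
Log2 differences of the 5 tested members under every alternative setting, with KYDS against CON on the left and KYDS+BGZ_L against BGZ_L on the right; the bar is the value as reported, and filled points have an adjusted p under 0.05. Ces2c is filled throughout, from 2.93 to 5.25 on the left and from 4.10 to 6.08 on the right.

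Among the genes whose profile over the 20 libraries was most like that of Ces2c was Aqp8, a water channel, at a root mean square log2 difference of 1.23 after centring on the mean. Aqp8 was 2.35 higher (log2) in KYDS than in CON rats (limma, adjusted p = 0.0108) and 2.95 higher in KYDS+BGZ_L than in BGZ_L rats (0.0011). For Ces2h the most alike were Pgrmc1 and Psmd2, at 0.36 and 0.39. Likeness here is a description of profiles, and Aqp8 was picked by it from these same 20 libraries. Its differences between groups follow in part from that choice and are no independent result.

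Of 13 further carboxylesterase names, 5 had rows and 3 passed the filter. None of these was called for KYDS against CON. For KYDS+BGZ_L against BGZ_L, Ces2j, another Ces2 gene, was higher, at 8.39 to 35.6 scaled TPM in KYDS+BGZ_L rats against 1.22 to 5.35 in BGZ_L rats (log2 difference 2.16 ± 0.58; limma, adjusted p = 0.0166). Ces4a was lower, at 0.383 to 1.19 scaled TPM in KYDS+BGZ_L rats against 1.80 to 6.98 in BGZ_L rats (-1.36 ± 0.35; adjusted p = 0.0138). The Ces2i difference was 0.97 ± 0.51 (adjusted p = 0.198). With the mitochondrial covariate neither Ces2j (adjusted p = 0.109) nor Ces4a (0.0906) passed, and without scaling Ces4a did not (-0.73, adjusted p = 0.140). The row LOC501233, which is annotated as Ces1f in one entry of the table and as carboxylesterase 1C in another, averaged 325 ± 203 scaled TPM in KYDS+BGZ_L rats, 193 ± 135 in KYDS rats, 317 ± 172 in BGZ_L rats and 231 ± 148 in CON rats, and was not called. That row was found after the table was seen. Its range overlapped that of Ces1d in each group.

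Other ester and lipid hydrolases of the liver were counted for context. Of 17 tested, 1 was higher and 1 lower in KYDS than in CON rats, and 5 were higher and 0 lower in KYDS+BGZ_L than in BGZ_L rats, with median log2 differences of 0.89 and 0.71. Over all genes 3.25% were higher and 3.02% lower in the first of these comparisons, and 8.82% and 8.55% in the second, so 1 of 17 each way is near the background. Those with the largest differences were Aadac, an arylacetamide deacetylase (1.93 ± 0.41, limma adjusted p = 0.0052), Faah, a fatty acid amide hydrolase (1.88 ± 0.56, adjusted p = 0.0258), and Pon1, paraoxonase 1 (1.78 ± 0.45, adjusted p = 0.0114), all in KYDS+BGZ_L against BGZ_L rats. In KYDS against CON rats the pair that passed was Lipc, hepatic lipase (1.56 ± 0.30, adjusted p = 0.0082), and Esd, esterase D (-1.20 ± 0.35, adjusted p = 0.0489; 0.14 without scaling), named after their values were seen. Of 12 lipoprotein assembly genes, in which Ces1d acts in the mouse, 4 were higher in KYDS than in CON rats and 8 were higher in KYDS+BGZ_L than in BGZ_L rats, with 0 lower in both, beside the same all-gene shares. The largest were Apoe (2.39 ± 0.61, adjusted p = 0.0121), Apoc3 (2.25 ± 0.55, adjusted p = 0.0098) and Mttp (1.83 ± 0.39, adjusted p = 0.0051), in KYDS+BGZ_L against BGZ_L rats. Of the 8 hepatocyte markers, 2 were higher in KYDS than in CON rats and 4 were higher in KYDS+BGZ_L than in BGZ_L rats, with 0 lower in both, and their part in these counts was not tested. Without scaling, 13 hydrolases and 11 lipoprotein genes were higher in KYDS than in CON rats, and 10 of each list were higher in KYDS+BGZ_L than in BGZ_L rats. With the mitochondrial covariate, 0 of each list were higher in KYDS rats, and 3 hydrolases and 4 lipoprotein genes in KYDS+BGZ_L rats. With TPM recomputed over nuclear genes, 0 of each list were higher in KYDS rats, and 5 hydrolases and 3 lipoprotein genes in KYDS+BGZ_L rats.

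Of 15 transcription factors and nuclear receptors tied to carboxylesterase genes, 1 was higher and 1 lower in KYDS than in CON rats, and 2 were higher and 2 lower in KYDS+BGZ_L than in BGZ_L rats. These counts are near the all-gene shares of 3.25% higher and 3.02% lower in the first comparison and 8.82% and 8.55% in the second. Nr1i3, the constitutive androstane receptor, was lower in KYDS rats (log2 difference -1.37 ± 0.41; limma, adjusted p = 0.0497). Ppara, which drives fatty acid oxidation, was lower in KYDS+BGZ_L than in BGZ_L rats (-1.99 ± 0.59, adjusted p = 0.0269), and Foxa2, a liver forkhead factor, was higher there (1.72 ± 0.38, adjusted p = 0.0064). Named after their values were seen, Nfe2l2, the antioxidant factor, was higher in KYDS than in CON rats (0.87 ± 0.25, adjusted p = 0.0467) and in KYDS+BGZ_L than in BGZ_L rats (0.92 ± 0.25, adjusted p = 0.0171), and Nr1i2, the pregnane X receptor, was lower in KYDS+BGZ_L than in BGZ_L rats (-1.17 ± 0.38, adjusted p = 0.0410). Nr3c1, the glucocorticoid receptor, is outside the naming rule and did not pass, at 0.39 ± 0.26 in KYDS against CON rats (limma, adjusted p = 0.361). It was not called for KYDS+BGZ_L against BGZ_L either, at 2.49 ± 0.78 against 1.79 ± 0.54 scaled TPM (SD). Without scaling, or with TPM recomputed over nuclear genes, the calls of Nr1i3, Ppara and Nr1i2 did not hold, and over nuclear genes those of Nfe2l2 did not either. With the mitochondrial covariate 0 of the 15 were called for KYDS against CON, and for KYDS+BGZ_L against BGZ_L Nfe2l2 and Foxa2 were higher and 0 were lower. Without scaling 11 of the 15 were higher in KYDS rats and 3 in KYDS+BGZ_L rats.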

How the data were processed

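RNA libraries of 20 rat livers, 5 per group, were grouped by the sample titles. Per the labels, TruSeq libraries were sequenced in pairs and only read 1 was analysed. The file's name calls the values raw counts. They have 2 decimals, sum to 914343 to 983962 per library, and have a smallest nonzero value that falls with gene span, so the deposited values were read as TPM made by the authors. The planned count test was therefore replaced by limma. The aligner and counter are not stated in any source used here, and the submitters' processing notes list the mouse builds GRCm38, mm10 and GRCm39 although the identifiers are rat Ensembl. TPM keeps no depth, so no counting interval was computed.

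Libraries were scaled by trimmed means (30% of ratios, 5% of levels trimmed), a gene was kept where 5 or more libraries reached 0.5 scaled TPM (11869 genes), and log2(scaled TPM + 0.5) was fitted with limma 3.58.1 (R 4.3.3; trended, robust prior) to 4 group means with 16 residual degrees of freedom. Fold changes on this scale understate differences of low genes. Contrasts were two-sided with Benjamini-Hochberg adjustment over all genes tested and a threshold of 0.05. Exact permutation tests used scipy 1.17.1, promoters were aligned with Biopython 1.88 and figures drawn with matplotlib 3.10.9. The procedure was tested on simulated data, with independent noise for each gene and equal numbers of genes raised and lowered in KYDS libraries. Noise shared between genes and shifts mostly in a single direction were not simulated. Named genes were the 9 members and, from each other list, the 3 largest differences that passed. Others are marked in the text, except Ces2i and Nr3c1, which did not pass and fall outside this rule. Likeness left out provisional symbols and carboxylesterases, and 1 gene it named is not reported here. The members and lists were chosen with earlier results of these data known. The alternatives were other scalings, pseudocounts, filters, covariates, priors, library subsets, a replicate block and each library left out, of which 2 were added after seeing the data.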

Additional observations from a re-analysis of the deposited data

Results flagged for a closer look

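Of 24 groups of 5 libraries tested with Dixon's criterion (critical value 0.71) on unlogged scaled TPM, 3 held a library far from the others. Chance gives about 1 in 20 only for normally distributed values, which scaled TPM need not be. The criterion was not run on the log2 scale of the fits, where these gaps are narrower beside the range. Ces2c in KYDS 3 was 135 scaled TPM, and the next KYDS library was 34.1. Ces2h in KYDS 3 was 10.98 scaled TPM, and the next KYDS library was 4.86. KYDS 3 also had the lowest mitochondrial share of all libraries, 19.2%, and its part in these values was not tested. Without KYDS 3 the Ces2c log2 difference for KYDS against CON was 3.69 and stayed past the threshold. Ces2e in KYDS+BGZ_L 1 was 15.9 scaled TPM, and the next KYDS+BGZ_L library was 4.18. Without KYDS+BGZ_L 1 the Ces2e difference for KYDS+BGZ_L against BGZ_L was -0.33, against 0.27 with it, and neither passed.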

How the results depend on the processing

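Under 35 alternative settings (20 of them leaving out 1 library), 830 of 870 differences of single members kept their direction and side of the threshold, 29 turned direction, 6 came past it and 5 fell short. None of the 29 passed the threshold, and each cause was not tested. Ces2c passed in all 35 settings for KYDS against CON (highest adjusted p 0.0464) and for KYDS+BGZ_L against BGZ_L (highest 2.2e-04).

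The count of members higher in KYDS than in CON rats was 3 without scaling, where Ces2e (2.41, adjusted p = 0.0373) and Ces2h (1.76, adjusted p = 0.0189) joined Ces2c; the median log2 difference of all genes was then 1.03, against 0.05 with scaling. The count higher in KYDS+BGZ_L than in BGZ_L rats was 1, in place of 2, with the mitochondrial covariate and with the hepatocyte covariate, and 1 to 3 with 1 library left out. The count lower was 0 to 1 with 1 library left out, where Ces2a without BGZ_L 1 was -1.67 (adjusted p = 0.0351). Ces1d for KYDS+BGZ_L against BGZ_L came past the threshold without scaling (1.99, adjusted p = 0.0454).

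Directions turned as follows, on the log2 scale. For KYDS against CON, Ces2a was 0.98 without scaling, 0.014 with TPM over nuclear genes and 0.14 without CON 2 and BGZ_L 3; Ces1d was 1.35 without scaling and 0.070 over nuclear genes; Ces2h was -0.58 with the mitochondrial and -0.15 with the hepatocyte covariate. For KYDS+BGZ_L against BGZ_L, Ces2e was -0.00071 with a pseudocount of 0.1. For BGZ_L against CON, Ces2e was -0.066 over nuclear genes, -0.046 with the mitochondrial covariate and -0.035 without CON 2 and BGZ_L 3. With 1 library left out, the range for KYDS against CON was -0.41 to 0.19 for Ces2a and -0.26 to 0.19 for Ces1d. The range of Ces2e for KYDS+BGZ_L against BGZ_L was -0.33 to 0.91. For BGZ_L against CON it was -0.25 to 0.45 for Ces2e, -0.65 to 0.093 for Ces1d and -0.38 to 0.12 for Ces2h.

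No source used here states that replicate numbers pair the rats. Of 30 same-numbered pairs, 7 correlated above 0.1 (range -0.46 to 0.33). Of 20 libraries, 2 correlated best with their own number. Such correlations cannot decide whether the rats were paired by design. A fit with the replicate block gave Ces1d in KYDS+BGZ_L against BGZ_L 1.15 (adjusted p = 0.0427), changed no other member's call, and called 281 genes higher and 276 lower for KYDS against CON.

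Over all genes, 386 were higher and 358 lower in KYDS than in CON rats. These became 19 and 4 with the mitochondrial covariate, 91 and 32 with the hepatocyte covariate, 75 and 17 over nuclear genes, 94 and 87 in a fit of these groups alone, 207 and 160 without a filter, 143 and 113 without CON 2 and BGZ_L 3, and 65 and 27 without KYDS 3 and CON 2. With 1 library left out they were 142 to 563 and 70 to 512, and they differed by over 1.5 times without KYDS 1, 2, 3 or 5 or CON 1, 2 or 3 (for example 154 and 70 without KYDS 3, and 146 and 103 without CON 2). For KYDS+BGZ_L against BGZ_L, 1047 and 1015 became 302 and 367, 87 and 56, and 358 and 219 in the first 3 of these, and 1809 and 233 without scaling. With 1 library left out they were 523 to 1296 and 579 to 1221, with over 1.5 times fewer without KYDS+BGZ_L 1 (541 and 599) or 4 (523 and 579), and 619 higher without BGZ_L 3. The interaction was not run in fits of pairs of groups. Unknown depth limits values near 0, such as those of Ces2g. It also limits Ces2c without hydrocortisone, at 0.21 to 0.98 TPM as deposited in BGZ_L rats and 0.13 to 4.57 in CON rats. The fold differences and ratios of Ces2c rest on these low values.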
